A study of Mus musculus with 3 samples.

Results

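The tubulin isotype genes are the genes for the alpha and beta subunits from which microtubules are built. The 10 described here were taken by name, 3 for alpha tubulin (Tuba1a, Tuba1b and Tuba4a) and 7 for beta tubulin (Tubb2a, Tubb2b, Tubb3, Tubb4a, Tubb4b, Tubb5 and Tubb6), out of 32285 features measured. All 10 had counts at every age. They were followed in retinal horizontal cells of mice of the genotype Cx57icre;Ai14 at postnatal days 6 (P6), 8 (P8) and 11 (P11), with 1 droplet library per age. In these mice the Cre recombinase is driven by the connexin 57 gene, which the retina uses in horizontal cells, and switches on a red fluorescent reporter by which cells were sorted. All 3 groups carried both alleles, and the labels do not say how many animals went into a library. With 1 library per age, age and library cannot be told apart, no test between ages was possible, and every interval below covers counting error only.

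Horizontal cells were the barcodes with at least 1000 detected genes, at most 10% of counts from mitochondrial genes and a count for at least 2 of the 3 transcription factor genes Lhx1, Onecut1 and Onecut2. They numbered 7145 of 9896 barcodes at P6, 3153 of 4635 at P8 and 4757 of 5517 at P11, with median depths of 12161, 20671 and 22106 unique molecular identifiers (UMIs, each standing for 1 captured transcript). Their summed UMIs were 82305608, 62520239 and 103160766, and a level is given as counts per 1000000 of these (CPM). Horizontal cell markers that the rule did not use were all present, though not all at a high level. Calb1 stood at 702, 1714 and 2952 CPM and Prox1 at 931.5, 973 and 1336 CPM at P6, P8 and P11. Tfap2b stood at 1671, 1466 and 1698 CPM and Slc4a3 at 506, 851 and 2161 CPM. Gja10 was low, at 9.94, 26.1 and 25.4 CPM. Summed rod markers (7 genes) lay between 6.77 and 8.60 CPM, cone markers (6 genes) between 0.826 and 1.30 CPM and bipolar markers (8 genes) between 3.45 and 5.38 CPM. Summed ganglion cell markers (6 genes) were at 47.7, 23.6 and 15.5 CPM, mostly Slc17a6, and amacrine cell markers (7 genes) at 280, 261 and 239.6 CPM, nearly all Slc32a1. No marker of any class was at 0 at all 3 ages. Mitochondrial genes gave 3.30%, 3.42% and 4.58% of summed UMIs, and the nuclear RNA Malat1 stood at 20337, 15319 and 21409 CPM. Tubulin values taken without these genes in the total, or with at most 5% mitochondrial UMIs per cell, are given in the last section. Beyond that, the part of these differences in the tubulin values was not tested. Libraries shared 8 to 15 barcodes pairwise, and 4 to 8 of these were called horizontal cells in both.

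Microtubules are hollow polymers of dimers of 1 alpha and 1 beta tubulin, and neurons need them to grow axons and dendrites and to move cargo along them. Vertebrates carry several genes for each subunit, and the proteins are nearly alike except in the acidic tail at the carboxyl end, which lies on the outside of the polymer and is where enzymes add and remove side chains and where motors and other proteins bind. Horizontal cells are interneurons of the outer retina that contact photoreceptor terminals, and over the ages sampled here they spread their processes within 1 layer.

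The coding ends of 7 isotypes are shown because the tails are where most isotypes differ, and because the neighbours Tubb2a and Tubb2b differ there by so little that their counts depend on the untranslated end of the transcript. Each is the last 75 bases of the coding sequence with its stop codon, 5′ to 3′ on the transcript's strand, from the GENCODE vM21 annotation of GRCm38 (the build called mm10). In Tubb2a and Tubb2b capitals mark the bases unlike the neighbour's. In the others capitals mark the stop codon.
Tuba4a: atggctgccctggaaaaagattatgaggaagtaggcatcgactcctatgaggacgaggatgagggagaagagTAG
Tubb2a: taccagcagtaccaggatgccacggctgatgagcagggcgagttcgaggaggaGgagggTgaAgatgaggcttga
Tubb2b: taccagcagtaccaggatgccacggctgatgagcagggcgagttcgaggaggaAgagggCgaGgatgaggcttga
Tubb3: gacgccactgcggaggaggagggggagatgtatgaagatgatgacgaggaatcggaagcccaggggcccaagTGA
Tubb4a: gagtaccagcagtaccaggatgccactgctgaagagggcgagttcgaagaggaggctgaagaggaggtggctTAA
Tubb4b: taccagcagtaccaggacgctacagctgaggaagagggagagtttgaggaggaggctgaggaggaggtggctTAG
Tubb5: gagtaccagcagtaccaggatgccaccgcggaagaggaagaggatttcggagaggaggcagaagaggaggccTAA

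The genes for each close pair lie side by side. Tubb2a (chr13:34074274-34078007) and Tubb2b (chr13:34126748-34130466) are 48.7 kb apart on the minus strand of mm10, and Tuba1b (chr15:98931425-98934565) and Tuba1a (chr15:98949837-98953703) are 15.3 kb apart, also on the minus strand. Tuba4a is at chr1:75214228-75219865 and Tubb4b at chr2:25222160-25224702, both on the minus strand. Tubb5 (chr17:35833921-35838306) and Tubb4a (chr17:57080066-57087782) share a chromosome and strand without being neighbours, and Tubb3 lies at chr8:123411424-123422015 on the plus strand. The printed tails of Tubb2a and Tubb2b differ at 3 bases, and 0 of their 25 codons encode another residue, so the tail does not set the proteins of this pair apart. The whole coding sequences are 96.5% identical between Tubb2a and Tubb2b and 98.3% identical between Tuba1a and Tuba1b. Every other pair within a family is 80.3% to 85.9% identical. The counts come from the 3′ end: over the last 300 transcript bases Tubb2a and Tubb2b are 47.1% identical and share no stretch of 50 bases. Their untranslated ends have 194 and 723 bases, so the last 300 bases of Tubb2a include coding bases, set there against untranslated bases of Tubb2b. The coding sequences of this pair share 712 stretches of 50 bases, so a read in coding sequence may be uncertain between them. Tuba1a and Tuba1b are 54.6% identical over the last 300 bases but share 47 stretches of 50 bases there, so some of their reads may be uncertain between the 2 genes. Tuba1b overlaps Gm41396, Tuba4a overlaps Stk16 and Tubb4b overlaps Fam166a, each on the other strand.

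The isotypes that make up horizontal cell tubulin RNA differed between P6 and P11, and by more among the beta than among the alpha genes. The summed RNA of each family differed by less than 1.5-fold between these ages, and by more for alpha than for beta tubulin. Alpha tubulin UMIs together stood at 3655 CPM at P6, 4989 CPM at P8 and 4515 CPM at P11, and beta tubulin UMIs at 4674, 5676 and 4389 CPM. The P11 sum was 1.24-fold that at P6 for alpha tubulin (a log2 ratio of 0.31), and the log2 ratio was -0.09 for beta tubulin. With scaling by the trimmed mean of M-values (TMM) these log2 ratios were 0.50 and 0.11, so the direction for beta tubulin rests on the scaling. Moving the alpha composition at P6 into that at P11 would take a shift of 5.81 percentage points of alpha UMIs between genes, whereas the beta composition would take 32.5 points of beta UMIs. Taken between adjoining ages, the beta shift was 19.2 points between P8 and P6 and 15.4 points between P11 and P8, while the alpha shift came to 1.07 points between P8 and P6 and to 4.78 points between P11 and P8. Shares of this kind do not depend on how a library is scaled, since each is taken within 1 gene family of 1 library.

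**Figure D1:**
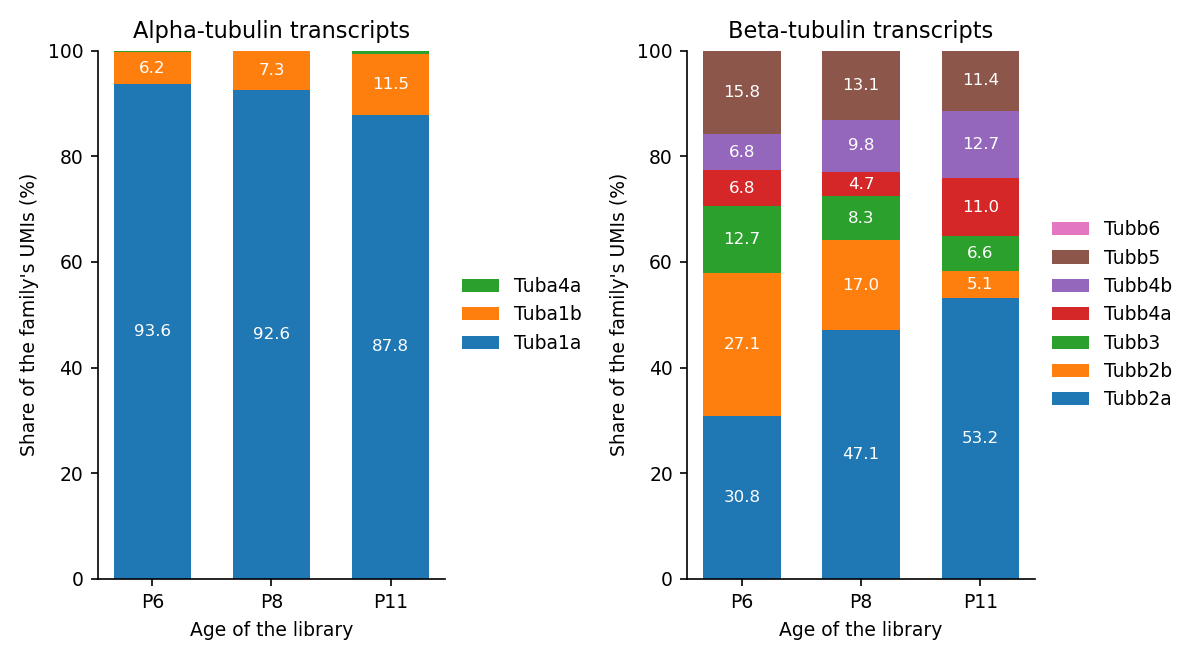
Share of each alpha tubulin gene (left) and each beta tubulin gene (right) in its family's summed UMIs in horizontal cells at P6, P8 and P11, in percent, 1 library per age. Tubb2a widens to 53.2% of beta tubulin UMIs at P11 while Tubb2b narrows to 5.11%, and Tuba1a keeps at least 87.8% of alpha tubulin UMIs at every age.

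Among the alpha genes, Tuba1a, the main alpha tubulin gene of developing neurons, led at every age. Its level was 3422, 4620 and 3965 CPM at P6, P8 and P11, and its share of alpha tubulin UMIs was 93.6% (95% Clopper-Pearson interval 93.5 to 93.7%), 92.6% (92.5 to 92.7%) and 87.8% (87.7 to 87.9%). The level was highest at P8, whereas the share was lowest at P11. Tuba1b, a broadly used alpha tubulin gene, had 227, 363 and 521 CPM, in ascending order of age. Its share of alpha tubulin UMIs was 6.20%, 7.27% and 11.5%, and its P11 level was 2.30-fold the P6 level (interval 2.26 to 2.34). Because the pair shares stretches of its 3′ ends, part of the Tuba1b count could belong to Tuba1a, and the files do not show how much.

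Tuba4a, whose protein is known to end without the tyrosine that most other alpha tubulins carry, was the scarcest of the 3 alpha genes and the one with the largest ratio. It had 6.49 CPM (exact Poisson interval 5.95 to 7.06) at P6 and 6.80 CPM (6.17 to 7.48) at P8, intervals that overlap, and 29.1 CPM (28.1 to 30.2) at P11. The P11 level was 4.48-fold the P6 level (interval 4.09 to 4.93). It still supplied only 0.644% of alpha tubulin UMIs at P11, against 0.178% at P6. When every cell was thinned to 3000 UMIs to make depths equal, 1.86%, 1.70% and 8.12% of horizontal cells held a Tuba4a UMI at P6, P8 and P11. Without thinning the shares were 6.91%, 11.5% and 38.9%, with P6 and P8 in the other order. Alpha tubulin genes outside the 10 supplied 0.207%, 0.177% and 0.232% of all alpha tubulin UMIs, mostly Tuba8 at 7.36, 8.38 and 10.2 CPM.

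Among the beta genes the largest exchange was between the neighbours Tubb2a and Tubb2b, the pair of class II beta tubulins used in neurons. At P6 Tubb2a had 1441 CPM and Tubb2b 1265 CPM, a difference of a few points of beta tubulin UMIs (30.8% and 27.1%). At P8 Tubb2a had 2672 CPM and Tubb2b 967 CPM, or 47.1% and 17.0% of beta tubulin UMIs. At P11 Tubb2a had 2334 CPM and Tubb2b 224 CPM, or 53.2% (interval 53.0 to 53.3%) and 5.11% (5.05 to 5.17%). Tubb2a was thus highest at P8 by level and at P11 by share, and Tubb2b was lowest at P11 by both. Against P6, P11 cells had 1.62-fold more Tubb2a (interval 1.61 to 1.63) and 5.64-fold less Tubb2b (5.56 to 5.72). Mutations of the human TUBB2B gene disturb the folding of the cerebral cortex, where the gene serves migrating and growing neurons.

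Tubb3 is the class III beta tubulin gene widely used as a marker of neurons. By total UMIs it also had less at each later age, at 594, 472 and 289.6 CPM. Its log2 ratio between P8 and P6 was -0.33 by total UMIs but -0.06 under TMM, so the size of that step rests on the scaling. Its share of beta tubulin UMIs was 12.7%, 8.31% and 6.60%, and its P11 level was 2.05-fold lower than its P6 level (interval 2.02 to 2.08). The class IV genes did not share a time course. Tubb4a, which is concentrated in nervous tissue, had 318 CPM at P6, 266 CPM at P8 and 484 CPM at P11, whereas Tubb4b, which is used in many tissues and in the microtubule core of cilia, had 318, 555 and 558 CPM. Summed over cells, both supplied nearly the same share of beta tubulin UMIs at P6, 6.80% for Tubb4a (6.72 to 6.88%) and 6.79% for Tubb4b (6.72 to 6.87%), but in the shallowest of 3 groups of cells by depth they supplied 6.04% and 6.70% and in the deepest 7.48% and 6.91%. At P8 they stood apart at 4.69% and 9.78%. At P11 they were at 11.0% and 12.7%.

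Tubb5, the broadly used class I beta tubulin gene, had 739, 744 and 498 CPM and a share of 15.8%, 13.1% and 11.4% of beta tubulin UMIs. Its P6 and P8 levels had overlapping intervals (733 to 745 and 737 to 751 CPM), and its P11 level was 1.48-fold lower than its P6 level. Tubb6, a class V beta tubulin gene that diverges from the others, was close to undetected, with 12, 11 and 35 UMIs over all horizontal cells at P6, P8 and P11. Its level at P11 was 0.339 CPM (0.236 to 0.472), against 0.146 CPM (0.0753 to 0.255) at P6, so that at most 0.00773% of beta tubulin UMIs were of this gene. Tubb1, the remaining beta tubulin gene measured, had 0 UMIs in horizontal cells at all 3 ages, for which the one-sided 95% limit is 3 UMIs per age.

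By level, the order at P6 was Tuba1a, Tubb2a, Tubb2b, Tubb5, Tubb3, then Tubb4a and Tubb4b with overlapping intervals (314 to 322 CPM and 314 to 321 CPM), then Tuba1b, Tuba4a and Tubb6. At P11 it was Tuba1a, Tubb2a, Tubb4b, Tuba1b, Tubb5, Tubb4a, Tubb3, Tubb2b, Tuba4a and Tubb6, and no intervals of neighbours in that order overlapped. Tubb2b had moved from the third place to the eighth. A UMI stands for 1 transcript end and is not divided by length, so these comparisons between genes rest on transcripts captured alike from each gene, which was not tested.

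**Figure D2:**
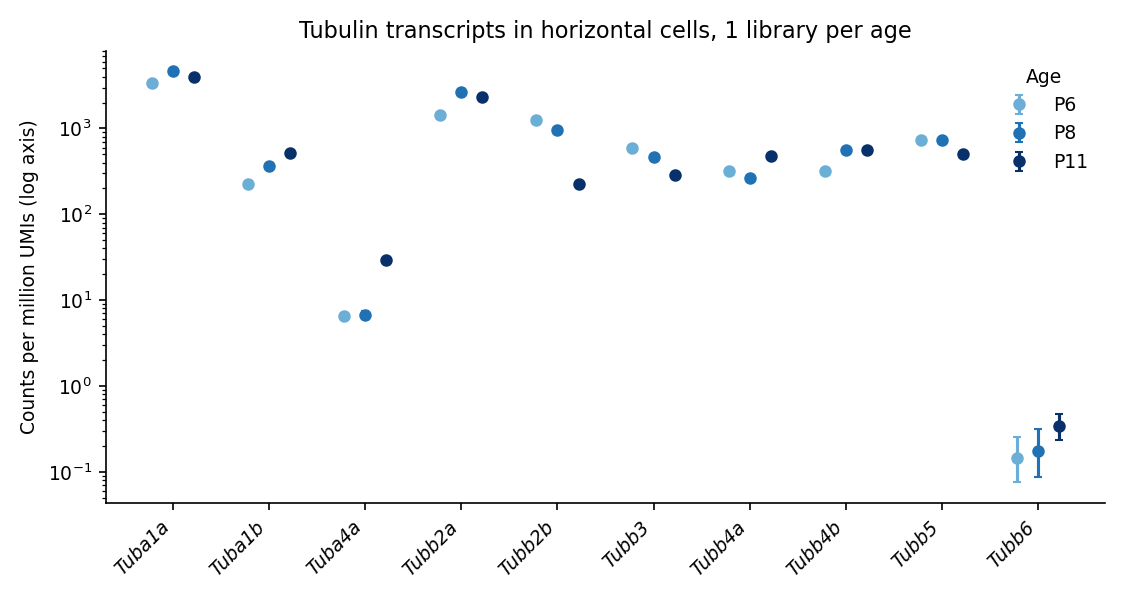
Level of each of the 10 tubulin genes in horizontal cells, in counts per 1000000 UMIs on a log axis, with 1 point per library (P6, P8 and P11 from light to dark) and exact Poisson 95% intervals that cover counting error only. Tuba4a is flat between P6 and P8 and stands at 29.1 CPM at P11, Tubb2b stands at 224 CPM at P11, and Tubb6 stays below 1 CPM at all 3 ages.

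Set against all genes, a member was counted when its levels lay at least 1.5-fold apart and the higher reached 20 CPM. Between P11 and P6, 9 of the 10 genes reached that level, Tuba4a through P11 alone, and Tubb6 did not. Tuba1b, Tuba4a, Tubb2a, Tubb4a and Tubb4b were higher at P11, which is 5 genes, or 4 of the 8 that reached the level at both ages, where 7.31% of 7156 genes tested were higher. Tubb2b and Tubb3 were lower at P11, which is 2 genes where 12.3% of all genes were lower, and Tuba1a and Tubb5 lay between. The split of all genes depends on the scaling: 523 were higher and 882 lower by total UMIs, but 985 were higher and 485 lower by TMM scaling. Under TMM every log2 ratio of P11 over P6 lay 0.20 higher, and 5 members were still higher and 2 lower.

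Between P8 and P6, Tuba1b (1.601-fold), Tubb2a (1.85-fold) and Tubb4b (1.75-fold) were higher at P8, 3 of 8 genes tested where 7.93% of 7062 genes were higher. None of the 8 was at least 1.5-fold lower, where 21.7% of all genes were. Under TMM, Tuba1a was also counted as higher at P8, which makes 4, and the log2 ratio of Tubb4a was 0.02, against -0.26 by total UMIs. The TMM log2 ratios of Tubb2b and Tubb3 were -0.11 and -0.06, against -0.39 and -0.33 by total UMIs. Between P11 and P8, Tuba4a (4.28-fold) and Tubb4a (1.82-fold) were higher, 2 of 9 genes tested where 10.4% of 6766 genes were. Tuba4a was tested through P11 alone, and of the 8 genes that reached 20 CPM at both ages only Tubb4a was higher, a share near that of all genes. Tubb2b (4.31-fold) and Tubb3 (1.63-fold) were lower at P11 than at P8, 2 genes where 4.54% of all genes were, and Tubb5 (1.49-fold lower) lay just inside the limit. The 3 comparisons share their libraries, so each count is not independent of the other two. Only Tubb2b, at a log2 ratio of -2.11, and Tuba4a, at 2.10, lay more than 1 log2 unit from 0 between P11 and P8.

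The P8 library also differed from the others by gene length. With the genes tested split by genomic span into 5 groups of equal size, the shortest group had a median log2 ratio of 0.27 between P8 and P6 and the longest group one of -0.73, and between P11 and P8 the same groups had medians of -0.26 and 0.43. The tubulin genes are short, with spans of 2.54 to 12.03 kb. Relative to the shortest group, the P8 to P6 log2 ratio was 0.62 for Tubb2a, 0.41 for Tuba1b and 0.53 for Tubb4b, so that only Tubb2a stayed at least 1.5-fold higher, while Tubb2b at -0.66 and Tubb3 at -0.61 became at least 1.5-fold lower. Between P11 and P8, Tubb3 then lay at -0.44 and lost its count, and Tuba1b at 0.78 gained one. Tuba1a and Tubb2a, whose levels were highest at P8 by total UMIs, then lay 0.04 and 0.07 higher at P11 than at P8 on the log2 scale. The part of gene length in these ratios was not tested. Between P11 and P6 the medians were 0.03 and -0.29, and relative to the shortest group Tubb2b lay at -2.52 and Tuba4a at 2.14. In that setting Tubb4a at 0.58 lost its count and Tubb5 at -0.596 gained one, which makes 4 members higher and 3 lower.

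**Figure D3:**
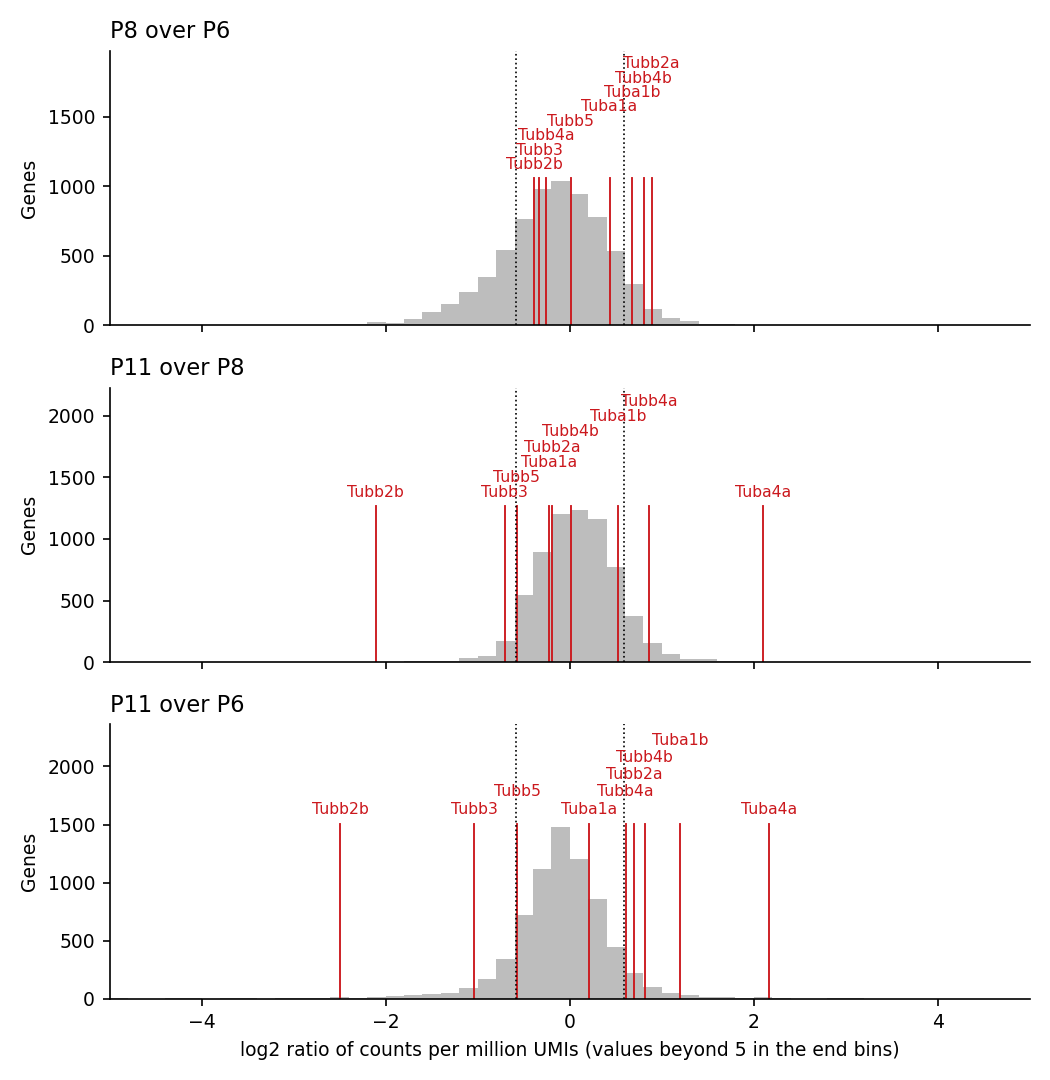
Log2 ratio of counts per 1000000 UMIs in horizontal cells for all genes tested (grey bars, number of genes per bin) and for the tubulin genes (red lines), with P8 over P6, P11 over P8 and P11 over P6 from top to bottom and dotted lines at 1.5-fold. Tubb2b (-2.50) and Tuba4a (2.16) lie farthest out on either side between P11 and P6. Of the other tubulin genes drawn there, Tuba1a and Tubb5 lie inside the dotted lines and the rest lie past them.

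In single cells with enough UMIs of the pair, the balance of Tubb2b and Tubb2a differed between ages across the distribution. From each cell with at least 15 UMIs of the pair, 15 were drawn at random, which left 6008, 2947 and 4432 cells, or 84.1%, 93.5% and 93.2%, at P6, P8 and P11. Tubb2b supplied a mean of 7.01, 4.01 and 1.29 of the 15, and the middle 80% of cells ran from 4 to 10, from 1 to 7 and from 0 to 3. Tubb2b was the majority in 40.7% of cells at P6, 5.50% at P8 and 0.135% (6 cells) at P11. It was absent from the draw in 0.0333% (2 cells), 2.54% and 33.4% of cells. Each age formed 1 peak, and the peaks moved toward fewer Tubb2b UMIs with age while overlapping.

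**Figure D4:**
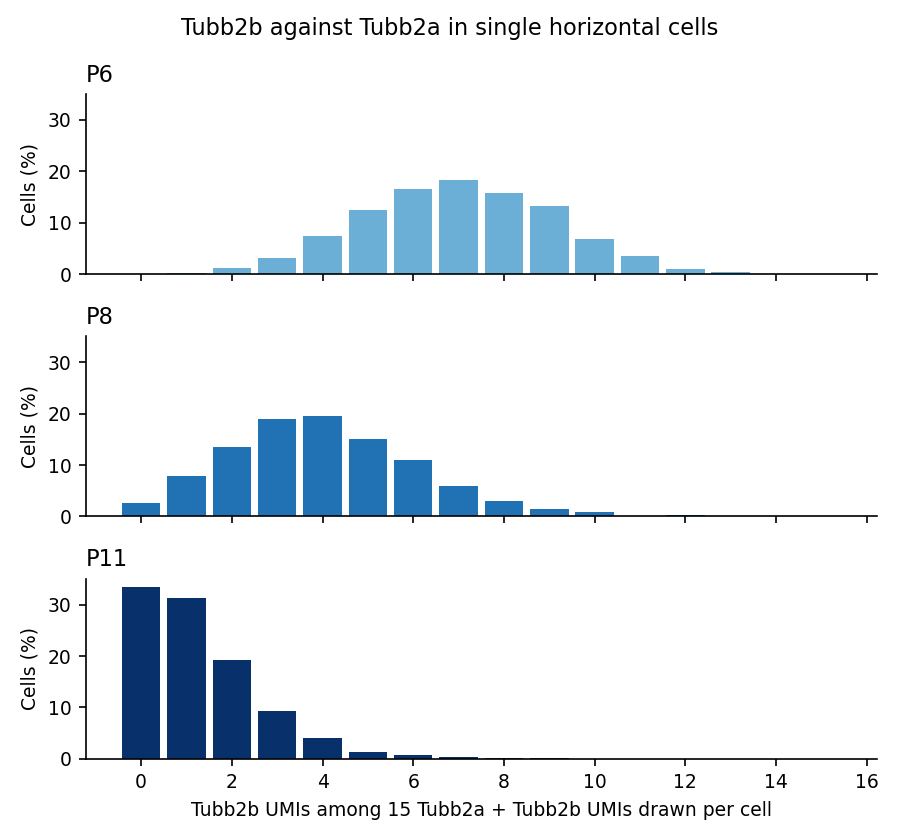
Percent of horizontal cells (vertical axis) by the number of Tubb2b UMIs among 15 Tubb2a and Tubb2b UMIs drawn per cell (horizontal axis), at P6, P8 and P11 from top to bottom. The single peak has a median of 7 at P6, of 4 at P8 and of 1 at P11.

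Cells of 1 age varied in this choice by more than drawing alone gives. The variance of the Tubb2b draw was 1.20 times the binomial variance at P6, 1.45 times at P8 and 1.51 times at P11. For Tuba1b against Tuba1a, drawn in the same way, it was 1.05, 1.08 and 1.04 times, with means of 0.943, 1.13 and 1.77 Tuba1b UMIs of 15. In cells thinned to 3000 UMIs, Tubb2b at P11 averaged 0.673 UMIs per cell with a variance 1.41 times its mean, and the 657 genes averaging 0.5 to 1 UMI at that age had a median ratio of 1.04 and a ninetieth percentile of 1.13. Tubb3, which averaged 0.851 UMIs at P11, had a ratio of 1.08. A UMI of Tubb2b was found in 95.1%, 89.6% and 44.0% of thinned cells and in 96.8%, 97.6% and 90.1% of cells without thinning.

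Relative to the size of each share, depth within an age moved Tubb2a and Tubb2b less than Tuba4a, and less than Tubb4a at P6 and P8. With the cells of each age split by UMIs into 3 groups of equal size, from low to high, Tubb2b supplied 26.3%, 27.4% and 27.1% of beta tubulin UMIs at P6, 18.7%, 16.9% and 16.3% at P8 and 5.24%, 5.12% and 5.02% at P11. Tubb2a supplied 31.97%, 31.1% and 30.1% at P6, 46.2%, 47.3% and 47.4% at P8 and 52.7%, 53.3% and 53.3% at P11. The differences between depth groups of 1 age were smaller than those between ages for Tubb2a and Tubb2b, although the median depth of the groups at P6 ran from 5719 to 16008 UMIs. Tubb4a supplied 6.04%, 6.34% and 7.48% of beta tubulin UMIs at P6 and 4.09%, 4.52% and 5.17% at P8, from the shallowest to the deepest cells. At P11 its share did not rise with depth, at 11.3%, 10.8% and 11.0%. Tuba4a supplied 0.558%, 0.612% and 0.730% of alpha tubulin UMIs at P11.

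Few droplets outside the horizontal cell rule could be compared. Those with at least 3 rod markers numbered 41, 41 and 40 at P6, P8 and P11, with median depths of 1933, 2382 and 1987.5 UMIs, and those with at least 3 bipolar markers numbered 44, 20 and 34. They also held horizontal cell RNA. In rod droplets Calb1 stood at 7.95%, 4.29% and 6.43% of its level in horizontal cells, Slc4a3 at 14.7%, 7.56% and 3.41% and Tfap2b at 10.01%, 5.64% and 3.72%. In bipolar droplets these 3 markers lay between 3.20% and 17.5%. Tubb2a supplied 30.8%, 47.1% and 53.2% of beta tubulin UMIs in horizontal cells, against 16.4%, 13.9% and 29.1% in rod droplets and 13.95%, 32.3% and 42.1% in bipolar droplets. For Tubb5 the shares were 15.8%, 13.1% and 11.4% in horizontal cells, against 37.1%, 47.5% and 38.4% in rod droplets and 37.5%, 31.2% and 30.3% in bipolar droplets. By level, Tubb2a in rod droplets stood at 14.8%, 5.84% and 11.3% of its level in horizontal cells, and Tubb5 at 65.5%, 71.6% and 69.8%. The part of free horizontal cell RNA in these values was not tested, so the rod share of Tubb2a may not be that of rods. The share of Tubb2a was higher and that of Tubb5 lower in horizontal cells in 3 of 3 libraries, with a mean difference to rod droplets of 23.9 points (14.4 to 33.1) for Tubb2a and -27.6 points (-34.4 to -21.3) for Tubb5. The mean differences to bipolar droplets were 14.2 points (11.0 to 16.9) for Tubb2a and -19.6 points (-21.7 to -18.1) for Tubb5. An exact sign-flip test over the 3 libraries, two-sided, gave p = 0.25 for each of the 4 comparisons, adjusted p = 0.25, which is the smallest value 3 libraries allow, so the test could not decide. Shares within 1 gene family are linked, so the 4 comparisons are not independent.

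In rod droplets the level of Tubb2b was 15.4%, 7.60% and 4.70% of that in horizontal cells. The horizontal cell marker Slc4a3 was close to it, at 14.7%, 7.56% and 3.41%. Tfap2b was lower at all 3 ages, and Calb1 was lower at P6 and P8 and higher at P11. The part of free horizontal cell RNA in these rod values was not tested, so Tubb2b could not be followed in rods. In bipolar droplets the level of Tubb2b was 37.5%, 36.5% and 38.4% of that in horizontal cells, above these 3 markers. Tubb2b supplied 27.1%, 17.0% and 5.11% of beta tubulin UMIs in horizontal cells, against 15%, 6.56% and 1.16% in rod droplets and 18.9%, 16.1% and 5.36% in bipolar droplets. Those droplet shares rest on 140, 122 and 86 beta tubulin UMIs for rods and on 387, 186 and 261 for bipolar cells, and the part of free horizontal cell RNA in them was not tested. At P6 Tubb2b supplied 27.1% and Tubb2a 30.8% of beta tubulin UMIs in horizontal cells, against 40.5% (34.2 to 47.1%) and 9.70% (6.25 to 14.2%) of 237 beta tubulin UMIs in 35 droplets with Müller glia markers. The ratio of the pair thus differed between these droplets and the horizontal cells of the same library.

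Other genes of the microtubule system were described by list, each count read against the 7.31% of all genes that were higher and the 12.3% that were lower between P11 and P6. No enrichment was tested. Of 4 stathmin genes, whose products hold free tubulin dimers and promote loss from polymer ends, 3 were at least 1.5-fold lower at P11 and the median log2 ratio was -0.93, against -0.08 over all genes tested. Stmn1 had 590.5, 373 and 150.2 CPM (3.93-fold lower), Stmn4 had 171, 106 and 77.6 CPM (2.21-fold lower) and Stmn2 had 1913, 2118 and 1167 CPM (1.64-fold lower). Stmn3 had 1503, 2013 and 1353 CPM. Of 16 tested genes for proteins that bind along the microtubule, 7 were lower, none was higher and the median log2 ratio was -0.48. The lowest were Map1b, active in growing axons, at 689, 372 and 247 CPM, Dcx (doublecortin), used by young neurons, at 729, 370 and 314 CPM, and Mapt (tau) at 606, 349.9 and 302 CPM. Map4, Map1lc3a and Map7d2 lay between, from 1.03-fold to 1.16-fold lower. Under TMM 2 stathmin genes (Stmn1 and Stmn4, no longer Stmn2) and 6 lattice-binding genes were lower, with median log2 ratios of -0.73 and -0.28.

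Genes whose products fold or modify tubulin, bind its ends or move along it had medians nearer to that of all genes between P11 and P6. All 24 tubulin folding and turnover genes lay within 1.5-fold, with a median log2 ratio of -0.04. The farthest were Tbcc, a tubulin folding cofactor, at 1.35-fold higher and Tbcd, another, at 1.42-fold lower. Of 15 tested genes for enzymes of the tubulin tail and of acetylation, 2 were lower and none was higher, which is near the 12.3% of all genes. Atat1, the alpha tubulin acetyltransferase, had 20.8, 7.93 and 11.4 CPM and was tested through P6 alone, and Svbp, the partner of the enzymes that remove the final tyrosine, had 35.9, 47.6 and 23.1 CPM. Of 18 tested genes for end-binding, nucleating and severing proteins, 3 were lower and none higher, again not far from the share over all genes. These were Spast (spastin, a severing enzyme, 1.63-fold), Clasp1 (1.57-fold) and Clip3 (1.56-fold), while Ckap5, Mapre2 and Mapre3 were at most 1.29-fold higher. Of 28 tested kinesin and dynein genes 1 was higher, Kif26b, an atypical kinesin gene, at 8.70, 7.97 and 31.6 CPM, which was tested through P11 alone. Another 4 of these were lower, a share near the 12.3% of all genes, with Dynll1, a dynein light chain gene, the lowest at 231, 206 and 113 CPM (2.04-fold). The gamma tubulin genes, whose products seed microtubules, had 143, 188 and 223 CPM for Tubg2 (1.56-fold higher at P11) and 70.8, 88.9 and 81.4 CPM for Tubg1. Under TMM the counts of Svbp, Spast, Clasp1, Clip3 and all lower motor genes but Dynll1 were lost, Tbcc and Dynlt3 were counted as higher, and the medians of the folding, tail and motor lists were 0.16, 0.08 and 0.11.

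**Figure D5:**
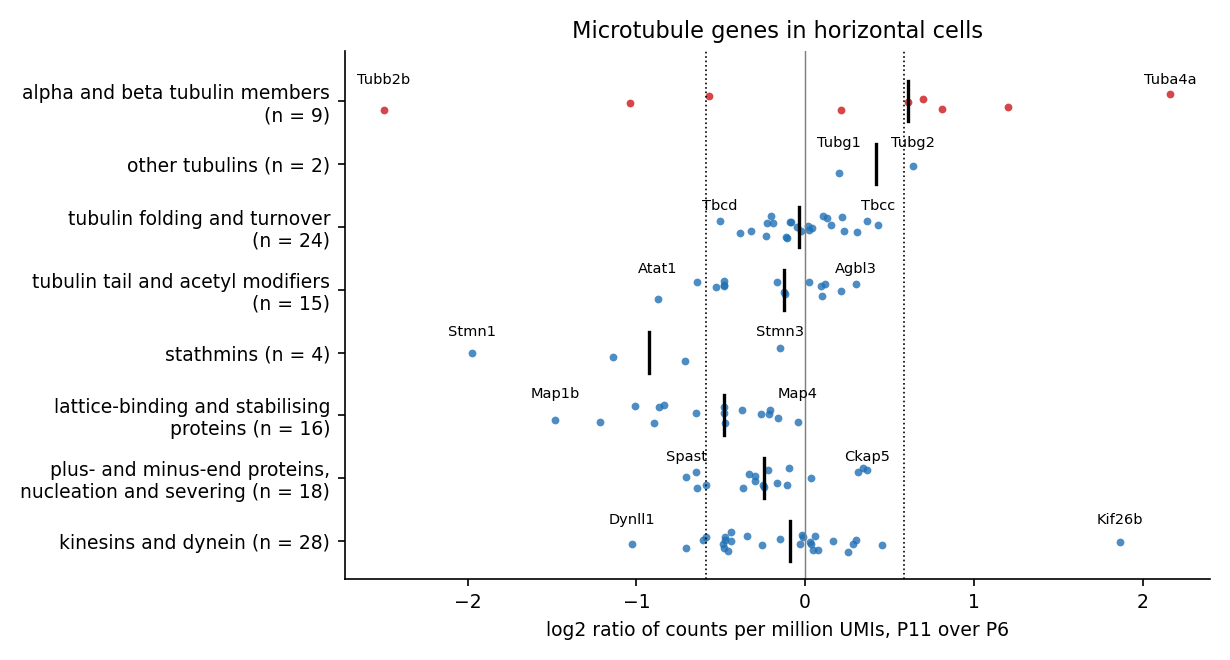
Log2 ratio of counts per 1000000 UMIs, P11 over P6, for each tested gene of the alpha and beta tubulin set (red, top) and of 7 other microtubule gene lists (blue), with the median of each list as a black bar, dotted lines at 1.5-fold and the highest and lowest gene named. The stathmin bar lies at -0.93 and that of lattice-binding proteins at -0.48, and folding genes stay within the dotted lines.

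The genes most like the 2 extreme members were sought by the distance between their pairs of log2 ratios (P8 over P6 and P11 over P8), over 3 ages and 2389 genes reaching 100 CPM. Nearest to Tubb2b were Tmem176b (distance 0.153) at 165, 119 and 25.2 CPM, Tmsb10, a thymosin gene whose product binds actin monomers, at 1592, 1343 and 413 CPM, and Gap43, a growth cone protein gene, at 255, 155 and 46.5 CPM. Nearest to Tuba4a were Gm45459 (distance 0.341) at 41.7, 42.6 and 231 CPM, Arhgef26 at 51.6, 65.7 and 189.6 CPM, and Frmpd4, a postsynaptic scaffold gene, at 52.5, 36.1 and 136 CPM. The distances to Tuba4a were larger than that of Tmem176b to Tubb2b. The genes nearest to Tuba4a reached 100 CPM through P11 alone, a level that Tuba4a itself did not reach at any age. Tmem176b and Gap43 reached it at P6 and P8 but not at P11. The limit thus had a part in which profiles could be found.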

How the data were processed

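Sorted horizontal cells were captured with the 10x Genomics 3′ chemistry, aiming at 10000 cells per library, per the labels' protocols. The matrices deposited by the authors hold raw UMI counts, 1 for each pair of gene and barcode. Cell Ranger 7.1.0 and mm10 are named in the submitters' processing notes. Neither the gene annotation behind the counts nor the handling of intronic reads is stated there or in the labels. No deposited barcode had fewer than 500 UMIs.

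Counts were summed per library over barcodes passing the horizontal cell rule and divided by summed UMIs. No doublet caller was run. Leaving out the 5% of cells with most UMIs and cells with 3 markers of another class (412, 175 and 263 cells at P6, P8 and P11) was an alternative. For shares of cells, each cell was thinned to 3000 UMIs, and 377, 97 and 90 shallower cells were left out. Intervals are exact Poisson for sums, exact conditional binomial for ratios and Clopper-Pearson for shares, at 95%, and cover counting error only. Positions came from GENCODE vM21, where 32158 features matched by gene ID. TMM factors came from edgeR 4.0.16 in R 4.3.3, used for scaling only, and other steps used Python 3.11.15, numpy 2.4.6, scipy 1.17.1, pandas 2.3.3, Biopython 1.88 and matplotlib 3.10.9. The ratio and interval code was tested on simulated data.

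The coding ends of some isotypes are not reported here.

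The members, gene lists and marker lists were chosen with earlier results of these data known. All 10 tubulin genes are named, with, from each list, up to 3 genes with the highest and up to 3 with the lowest P11 to P6 ratio among those reaching 20 CPM, and 3 genes nearest to each of the extreme members.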

Additional observations from a re-analysis of the deposited data

How the results depend on the processing

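No paired analysis was possible because each age has 1 library, so the replicate number joins no samples. Over 8 alternatives, 214 of 240 isotype shares stayed within their counting interval and the largest move was 0.379 points, so that the composition changes of alpha and beta tubulin kept their size. Of 286 log2 ratios of single members over 11 alternatives, 10 changed sign, for Tubb4a and Tubb5 between P8 and P6 and for Tuba1a, Tubb2a and Tubb4b between P11 and P8, none of them past 1.5-fold, and the largest move was 0.32. The alpha total, at 0.31 (log2, P11 over P6), became 0.30 with at least 2000 genes per cell, 0.29 as a mean over cells, 0.27 after thinning, 0.28 relative to the shortest-span group, 0.33 without mitochondrial genes and Malat1, and 0.50 with TMM or median-of-ratios scaling. The beta total, at -0.09, became -0.10, -0.11, -0.15, -0.12 and -0.069 in the same order of the first 5, -0.078 with at most 5% mitochondrial UMIs, and 0.11 with TMM or median-of-ratios scaling, so the direction of so small a difference rests on the scaling. At a 2-fold limit 0 members were higher between P8 and P6, 1 higher and 1 lower between P11 and P8, and 2 higher between P11 and P6. A minimum of 100 CPM left 1 higher between P11 and P8. Relative to the shortest-span group, 1 member was higher and 2 lower between P8 and P6, and 1 lower between P11 and P8, with 4 higher and 3 lower between P11 and P6. Of all genes between P11 and P6, 985 were higher and 485 lower with TMM scaling, 980 and 484 with median-of-ratios scaling, 213 and 297 at 100 CPM, 2286 and 6126 with no minimum, and 167 and 337 at 2-fold, which differ from 523 and 882 by construction or scaling. Depth limits Tubb6, at 12 to 35 UMIs, and the rod, bipolar and Müller droplets.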
